A study of Mus musculus with 7 samples.

Results

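The 10 genes described here are those that mark resting Mueller glia in the eye, chosen by gene symbol for their known roles in glutamate, potassium, water and retinoid handling and in support of neurons: Rlbp1, Glul, Slc1a3, Aqp4, Kcnj10, Crym, Car14, Apoe, Clu and Dkk3. All 10 were found among the 54532 genes of the expression table, and all 10 were among the 15472 genes that entered the tests, for which the mean over the libraries had to reach 1 FPKM. FPKM are fragments scaled by gene length and library size. The study asked what Agbl5 does in photoreceptors, and the samples were mouse eyes of 3 Agbl5 genotypes, with 3 knockout, 2 heterozygous and 2 wildtype libraries of polyadenylated RNA. The tissue is labelled eyeball, while the extraction text speaks of retina, and neither the strain, the age nor the design of the knockout allele is given in the sources used here. Lack of one Agbl5 allele separates the heterozygous and lack of both the knockout mice from wildtype, and no group received a treatment. Agbl5 encodes a carboxypeptidase that trims glutamate side chains from tubulin, and its transcript was at 8.57 and 9.89 FPKM in wildtype, 4.21 and 5.34 in heterozygous and 1.27 to 1.73 in knockout libraries.

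Mueller cells are the principal glia of the retina and span its whole depth. They clear glutamate released by photoreceptors and bipolar cells and turn it into glutamine, carry potassium and water away from active synapses, buffer acid, and take part in retinoid recycling for cones. In injured retina they become reactive, raising intermediate filaments and acute phase proteins, and in some injuries they lose part of the homeostatic set.

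The libraries held 11912956 to 13938242 reads that could be recovered from the FPKM values. Heterozygous 1 and knockout 1 were rich in lens transcripts, with a mean log2(FPKM + 1) of 6.43 and 7.11 over 8 lens genes, against 0.500 to 1.80 in the other 5 libraries. Xist reached 181 FPKM in wildtype 2 and 158 FPKM in knockout 3, where the Y-linked Ddx3y was listed at 0, and at most 0.0381 FPKM elsewhere. The libraries are of whole tissue, so fewer cells of a type and less RNA per cell cannot be told apart. By these genes wildtype 2 did not come from the same animal as wildtype 1, nor knockout 3 from the same animal as knockout 1 or 2. For the other libraries of a genotype nothing in the labels says that they came from separate animals, so p-values measure the spread between these libraries, part of which may be technical.

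Of the 10 genes, Crym rose in knockout. A knockout mean within 10% of the mean of the 4 heterozygous and wildtype libraries, called all controls here, was found for 7. Among the 7, Glul was near that limit, at -9.97%. Against wildtype alone 6 of the 10 were within 10%, and against heterozygous libraries alone also 6. Clu and Apoe were higher in every knockout library than in every control without passing the test over all genes. Glul, the most abundant of the set, was lower in every knockout library than in both wildtype libraries, also without passing. Tests were made with limma on log2(FPKM + 1), with p-values adjusted by the Benjamini-Hochberg method over all tested genes and called at an adjusted p under 0.05. Against wildtype, 1 of 10 genes was called higher (Crym), where 0.265% of all tested genes were. Against heterozygous libraries it was again Crym, 1 of 10, where 0.271% of all genes were called higher. Against all controls it was 1 of 10, Crym, where 0.465% of all genes were called higher. The 3 comparisons share the knockout libraries and are not independent of each other. In each of them 3 of the 10 genes had an unadjusted p under 0.05 (limma). The share over all tested genes was 7.5% against wildtype, 12% against heterozygous libraries and 12.2% against all controls. Between heterozygous and wildtype limma called 0 of the 10 genes and 0% of all genes, with 0 of the 10 at an unadjusted p under 0.05, where 4% of all tested genes were. A count-based fit on recovered reads (voom) called 0 of 9 there, with 1 at an unadjusted p under 0.05. For knockout, voom had 4 of 9 at such a p against wildtype, 3 against heterozygous libraries and 4 against all controls. Over all 14787 genes in that fit these counts were 1141, 1882 and 1840.

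**Figure D1:**
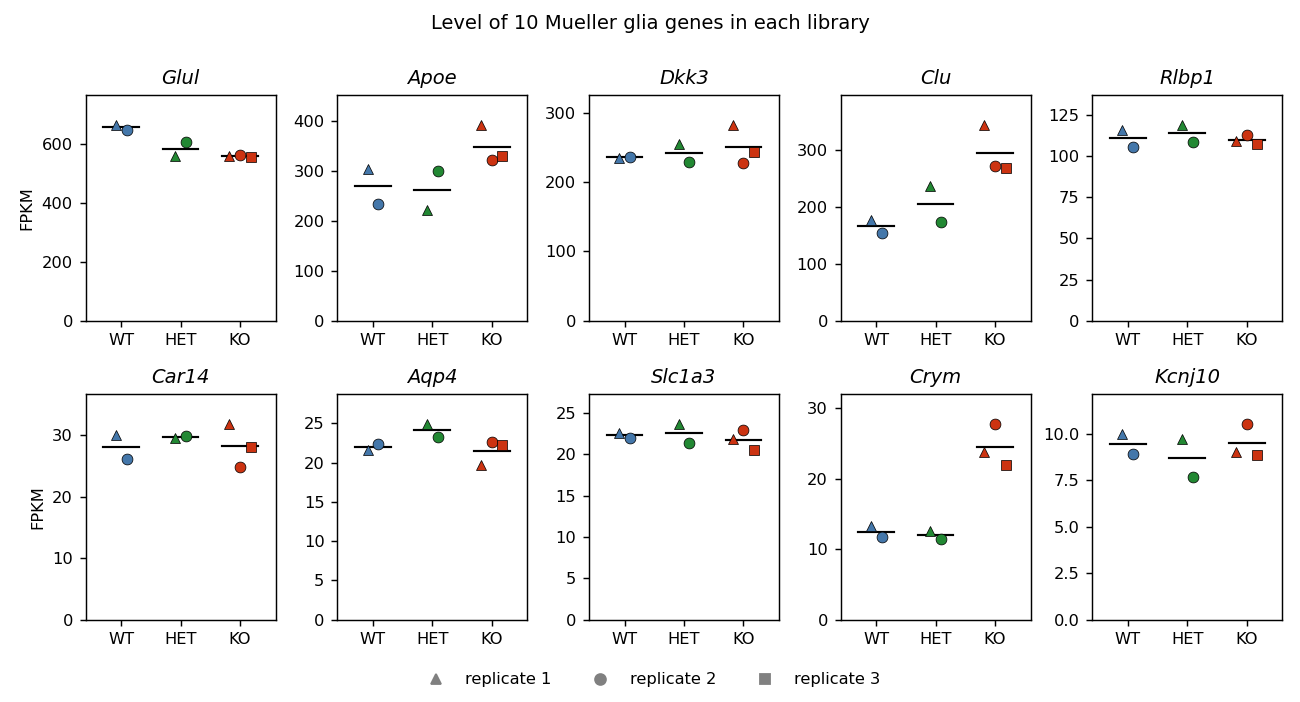
Level of each of the 10 genes in FPKM (vertical axes, starting at 0) in wildtype (WT), heterozygous (HET) and knockout (KO) libraries, ordered by mean level. Each point is 1 library, its shape gives the replicate number and the line is the group mean. The 3 knockout points of Crym (21.97 to 27.8 FPKM) lie above its 4 control points (11.4 to 13.2 FPKM), while Rlbp1, Slc1a3, Aqp4, Kcnj10, Car14 and Dkk3 overlap between knockout and controls.

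The 10 genes covered a wide range of levels. Ordered by their mean FPKM over the 7 libraries, which is scaled by gene length, they ran from Glul at 594 through Apoe at 301, Dkk3 at 244, Clu at 233, Rlbp1 at 111, Car14 at 28.6, Aqp4 at 22.4, Slc1a3 at 22.2 and Crym at 17.5 to Kcnj10 at 9.24. Glul lay above all other members in every library, and its mean exceeded that of 99.9% of tested genes. Apoe, Dkk3 and Clu overlapped over the libraries and have no fixed order among themselves. Rlbp1, at 106 to 119 FPKM, overlapped with no neighbour. Car14, Aqp4 and Slc1a3 formed a group between 19.8 and 31.9 FPKM, in which Aqp4 and Slc1a3 could not be ordered. In controls Crym lay below that group and above Kcnj10, and in knockout libraries it lay inside the range of that group. The 9 genes whose whole reads could be recovered held between 506 and 32558 reads in a library. The gene model of Aqp4 used here did not give whole reads, so no read number is given for it.

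Glul and Slc1a3 form the glutamate side of the set. Glul (ENSMUSG00000026473, chromosome 1, 153899944 to 153909723, plus strand of GRCm38) encodes glutamine synthetase, which converts glutamate and ammonia to glutamine. Slc1a3 (ENSMUSG00000005360, chromosome 15, 8634124 to 8710764, minus strand) encodes GLAST, the glutamate transporter of the Mueller cell membrane. Windows of 300 bases ran from 250 before to 50 after the gene start in the RefSeq table (GRCm38.p6). They were taken for 6 of the 10 genes: Glul, Slc1a3, Kcnj10, Rlbp1, Car14 and Apoe, the last with 3 starts. Crym, Clu and Dkk3 had no entry. Aqp4 was left out of the search, so nothing is said on motifs for that gene. The windows of Glul and Slc1a3 are shown because this transporter and enzyme act on the same substrate. Among the windows of these 6 genes, they were also the ones that held a searched motif, in capitals. They lie at chr1:153899679-153899978 on the plus strand and chr15:8710758-8711057 on the minus strand.

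Glul: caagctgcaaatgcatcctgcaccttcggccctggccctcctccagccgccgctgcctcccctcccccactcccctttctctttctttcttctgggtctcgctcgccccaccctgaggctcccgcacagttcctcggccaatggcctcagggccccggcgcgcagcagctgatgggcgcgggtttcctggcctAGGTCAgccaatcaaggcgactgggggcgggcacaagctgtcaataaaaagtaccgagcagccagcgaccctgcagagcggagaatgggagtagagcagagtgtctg
Slc1a3: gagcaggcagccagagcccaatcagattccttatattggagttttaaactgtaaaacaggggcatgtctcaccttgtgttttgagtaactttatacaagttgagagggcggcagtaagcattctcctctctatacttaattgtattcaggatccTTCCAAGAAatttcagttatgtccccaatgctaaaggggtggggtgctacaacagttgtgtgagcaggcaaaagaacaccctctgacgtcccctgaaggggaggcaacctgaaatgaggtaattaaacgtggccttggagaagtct

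The motifs searched, on both strands, were TTCNNNGAA (the palindrome bound by STAT factors), AACAAT (a SOX core), AGGTCA (a core bound by nuclear receptors) and the NF1 palindrome. Slc1a3 held TTCNNNGAA starting at position -96 from the RefSeq start, and 8.3% of all 32851 promoter windows hold it. Glul held AGGTCA at position -57, as 16.3% of all windows do. AACAAT, in 10.7% of all windows, and the NF1 palindrome, in 0.0365%, were in none of the windows of these 6 genes. A match describes these letters alone and not binding.

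Glul stood at 667 and 649.7 FPKM in wildtype 1 and 2, at 559 and 607 FPKM in heterozygous 1 and 2, and at 558, 562 and 556 FPKM in knockout 1, 2 and 3. All knockout libraries lay below both wildtype libraries, and so did both heterozygous libraries, of which heterozygous 1 was inside the knockout range. The knockout mean of 559 ± 2.83 FPKM (SD, n = 3) was 15.1% below the wildtype mean of 658 ± 12.3 (n = 2), which on the log2 scale is -0.24 ± 0.07 (± SE; limma, adjusted p = 0.489) and did not pass. Against all controls the log2 change was -0.15 ± 0.07 (adjusted p = 0.459), and heterozygous against wildtype gave -0.18 ± 0.08 (adjusted p = 0.974). The sign held in all 19 alternative settings of each of these comparisons, and none of them gave a call. Exons of Teddm2 and Mir8114 overlap 3.49% and 2.8% of the Glul model, and the library kit does not mark strand.

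Slc1a3 stood at 22.5 and 22.02 FPKM in the wildtype pair, 23.7 and 21.4 in the heterozygous pair and 21.9, 22.9 and 20.6 in knockout 1, 2 and 3. The genotypes overlapped. The knockout mean of 21.8 ± 1.16 FPKM (n = 3) stood beside 22.4 ± 0.973 in all controls (n = 4), and the 95% interval of the log2 change was -0.17 to 0.09 (limma, adjusted p = 0.803).

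Kcnj10 and Aqp4 serve potassium and water. Kcnj10 (ENSMUSG00000044708, chromosome 1, 172341210 to 172374085, plus strand) encodes Kir4.1, the inward rectifier through which Mueller cells pass potassium. Aqp4 (ENSMUSG00000024411, chromosome 18, 15389496 to 15410982, minus strand) encodes the water channel aquaporin 4, which sits with Kir4.1 on the endfeet. Kcnj10 gave 10 and 8.90 FPKM in wildtype 1 and 2, 9.70 and 7.67 in heterozygous 1 and 2 and 9.03, 10.5 and 8.87 in the knockout libraries, with the genotypes overlapping. Its knockout mean of 9.48 ± 0.913 FPKM (n = 3) stood beside 9.07 ± 1.04 in all controls (n = 4), with a 95% interval of the log2 change of -0.17 to 0.29 (limma, adjusted p = 0.84).

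Aqp4 gave 21.6 and 22.4 FPKM in wildtype 1 and 2, 24.95 and 23.2 in heterozygous 1 and 2 and 19.8, 22.6 and 22.2 in the knockout libraries. Knockout overlapped with wildtype and lay below both heterozygous libraries. Its knockout mean was 21.5 ± 1.56 FPKM (n = 3), 10.6% below the heterozygous mean of 24.1 ± 1.22 (n = 2; log2 change -0.16 ± 0.08, limma, adjusted p = 0.458). Against all controls the 95% interval was -0.26 to 0.07 (adjusted p = 0.614), and the change was 0.001 without the libraries rich in lens transcripts.

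Rlbp1, Car14 and Dkk3 also overlapped between knockout and controls. Rlbp1 (ENSMUSG00000039194, chromosome 7, 79374870 to 79387048, minus strand) encodes CRALBP, the retinaldehyde binding protein of Mueller cells and pigment epithelium. Its levels were 116 and 106 FPKM for wildtype 1 and 2, 119 and 108 for heterozygous 1 and 2 and 109, 113 and 107.5 for knockout 1, 2 and 3, with overlap of all genotypes. The knockout mean was 110 ± 2.78 FPKM (n = 3) and that of all controls 112 ± 6.35 (n = 4), with a 95% interval of the log2 change of -0.16 to 0.10 (limma, adjusted p = 0.87). The summed level of 10 pigment epithelium and melanocyte genes ran from 45.9 FPKM in wildtype 1 to 273 FPKM in knockout 1. Rlbp1 was higher in wildtype 1 than in knockout 1. In the knockout 1 sum Ttr, Rgr, Rpe65 and Lrat, genes of pigment epithelium, held 86.6, 19.35, 12.8 and 3.07 FPKM. The pigment genes Pmel, Dct, Tyrp1, Mlana and Tyr held 70.9, 29.9, 27.2, 20.75 and 2.15 FPKM, so the sum does not follow pigment epithelium alone. The part of pigment epithelium in the Rlbp1 level was not tested.

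Car14 (ENSMUSG00000038526, chromosome 3, 95897768 to 95904691, minus strand) encodes carbonic anhydrase XIV, a membrane enzyme facing the extracellular space. Wildtype 1 and 2 held 29.95 and 26.2 FPKM, heterozygous 1 and 2 held 29.6 and 29.9, and knockout 1, 2 and 3 held 31.9, 24.8 and 28.1, so the knockout libraries held both the highest and the lowest value. The 95% interval of the log2 change against all controls was -0.24 to 0.17 (limma, adjusted p = 0.903). Exons of Aph1a on the other strand cover 17.5% of the Car14 model, so part of this value cannot be assigned.

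Dkk3 (ENSMUSG00000030772, chromosome 7, 112116017 to 112159057, minus strand) encodes a secreted member of the Dickkopf family. Its level was 235 and 237 FPKM in the wildtype pair, 255 and 229 in the heterozygous pair and 283, 228 and 243 in knockout 1, 2 and 3. The libraries with the highest values, knockout 1 and heterozygous 1, were those rich in lens transcripts, and the other 5 lay between 228 and 243 FPKM. The log2 change against all controls was 0.07 ± 0.08 with a 95% interval of -0.12 to 0.26 (limma, adjusted p = 0.775). The part of lens tissue in the Dkk3 level was not tested.

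Crym (ENSMUSG00000030905, chromosome 7, 120186380 to 120202111, minus strand) encodes mu-crystallin, a cytosolic protein that binds thyroid hormone and reduces ketimines. Wildtype 1 and 2 stood at 13.2 and 11.7 FPKM, heterozygous 1 and 2 at 12.5 and 11.4, and knockout 1, 2 and 3 at 23.9, 27.8 and 21.97. Every knockout library stood well above every control, and the lowest knockout value was farther from the highest control than the controls were from each other. In reads, the controls held 506 to 656 and the knockout libraries 1019 to 1330. The knockout mean of 24.5 ± 2.97 FPKM (n = 3) was 2.01 times the mean of all controls, 12.2 ± 0.822 (n = 4). On the log2 scale this is 0.95 ± 0.09 (limma, adjusted p = 0.0033). Against wildtype it was 0.92 ± 0.11 (adjusted p = 0.0369) and against heterozygous libraries 0.97 ± 0.11 (adjusted p = 0.0271), while heterozygous minus wildtype was -0.05 ± 0.12 (adjusted p = 0.987). The lens-rich heterozygous 1 had 12.5 FPKM of Crym, within the range of the other controls, and the lens-poor knockout 2 held its highest value. The part of lens tissue in the Crym level was not tested. No exon of another gene model overlaps Crym.

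The call against all controls held in 18 of 19 alternative settings and was lost when the pair of lens-rich libraries was left out (0.98, limma, adjusted p = 0.0617). The calls against wildtype and against heterozygous libraries held in 6 of 19 settings each, and both were lost when any of the 7 libraries was left out, with log2 changes in all settings from 0.756 to 1.005 and from 0.795 to 1.049. The TPM scale moves the median change of the tested genes to -0.16 against wildtype and -0.12 against all controls, and there Crym was at 0.80 against wildtype (adjusted p = 0.163).

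Among tested genes with a RefSeq protein, the profiles nearest to Crym over the 7 libraries, by root mean square distance of centred log2(FPKM + 1), were those of Sec22c (0.0391), Klhl29 (0.0779) and Gnb3 (0.0871), the last encoding a transducin beta subunit of cones and bipolar cells. Sec22c, for a vesicle trafficking protein, was at 13.2 to 14.8 FPKM in controls and 26.2 to 30.8 in knockout libraries. Gnb3 was at 116 to 137 FPKM in controls and 230 to 265 in knockout libraries. These profiles come from the same 7 libraries and were found by searching all tested genes.

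Of the genes that handle thyroid hormone, none passed beside Crym. In a list of 8, 7 were tested, limma called 0 against all controls, with 2 at an unadjusted p under 0.05 (12.2% of all tested genes were), and the median log2 change was 0.01, beside 0.00 over all tested genes. Ttr, for the hormone carrier transthyretin made in pigment epithelium, was among the 2 and had 21.4 to 45.2 FPKM in controls and 50.8 to 86.6 in knockout (1.03 ± 0.27, adjusted p = 0.216). The deiodinase gene Dio2 had a mean of 4.54 FPKM in knockout and 4.24 in controls, and the receptor gene Thrb 11.5 and 11.8.

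**Figure D2:**
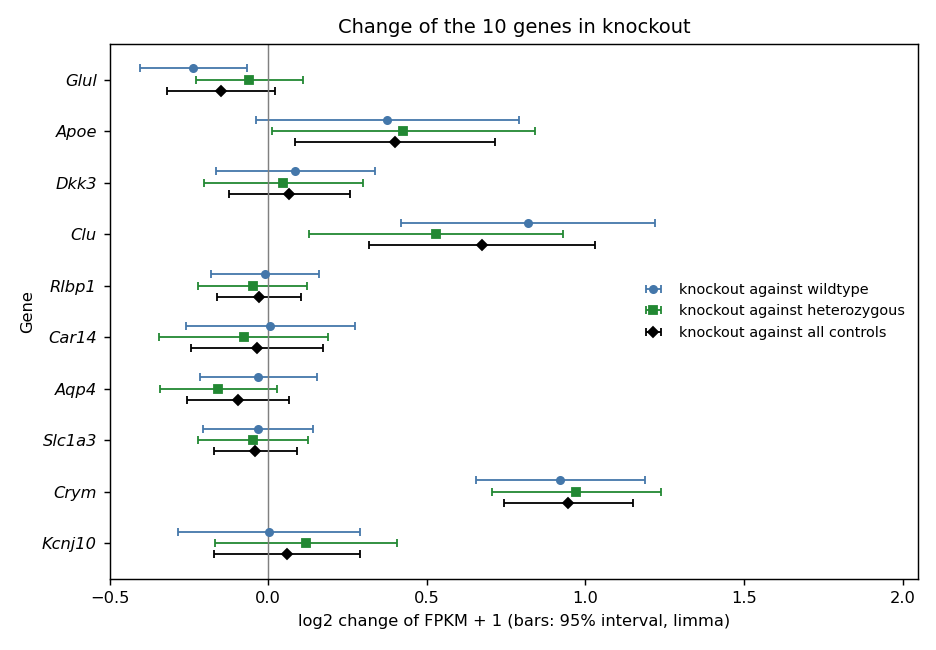
Log2 change of FPKM + 1 (horizontal axis) for each of the 10 genes in knockout against wildtype (circles), heterozygous (squares) and all controls (diamonds). Bars are 95% intervals from limma and are not adjusted for the number of genes. Crym stands apart from 0 in the 3 comparisons with changes of 0.92, 0.97 and 0.95, and Dkk3, Rlbp1, Car14, Aqp4, Slc1a3 and Kcnj10 have intervals that span 0 in each comparison.

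Clu and Apoe encode secreted lipid-carrying proteins of retinal glia. Clu (ENSMUSG00000022037, chromosome 14, 65968483 to 65981547, plus strand) encodes clusterin, an extracellular chaperone that also binds complement. Apoe (ENSMUSG00000002985, chromosome 7, 19696109 to 19699188, minus strand) encodes apolipoprotein E, which Mueller glia and microglia secrete. Clu measured 177 and 155 FPKM in wildtype 1 and 2, 236 and 174 in heterozygous 1 and 2 and 345, 272 and 268 in knockout 1, 2 and 3. All knockout libraries lay above all controls, and within the controls and within the knockout group the lens-rich library was the highest.

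The knockout mean of Clu, 295 ± 43.4 FPKM (n = 3), was 1.59 times that of all controls, 186 ± 35.2 (n = 4), and 1.78 times that of wildtype. The log2 changes were 0.67 ± 0.15 against all controls (limma, adjusted p = 0.161), 0.82 ± 0.17 against wildtype (adjusted p = 0.233) and 0.53 ± 0.17 against heterozygous libraries (adjusted p = 0.328), and none passed. Against all controls Clu passed when heterozygous 1 was left out (0.795, adjusted p = 0.0423), when the pair of lens-rich libraries was left out (0.678, adjusted p = 0.047), when a term for the lens genes was added to the limma fit (0.646, adjusted p = 0.0138) and with voom (0.675, adjusted p = 0.032). Against wildtype it passed with voom alone (0.823, adjusted p = 0.0343). The change against all controls was as large without the lens-rich libraries as with them, and against heterozygous libraries it was 0.31 without heterozygous 2. Nearest to Clu in profile were Serping1 (distance 0.133), Pbxip1 (0.136) and Wwtr1 (0.137), of which Serping1 encodes the inhibitor of complement C1.

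Apoe measured 305 and 235 FPKM in wildtype 1 and 2, 222 and 300.2 in heterozygous 1 and 2 and 393.5, 323 and 330.2 in knockout 1, 2 and 3. The controls spread widely and knockout 2 stood only slightly above wildtype 1. The knockout mean of 349 ± 38.9 FPKM (n = 3) was 1.31 times that of all controls, 265.5 ± 43 (n = 4). The log2 change of 0.40 ± 0.14 (limma, adjusted p = 0.32) did not pass, and it was 0.23 (adjusted p = 0.66) when the pair of lens-rich libraries was left out. Markers of microglia, which also express Apoe, were higher in knockout. Limma called 4 of 7 tested genes of a list of 9 higher against all controls (C1qa, C1qb, C1qc and Csf1r). Of all tested genes 0.465% were called higher there. The summed level of the 9 was 26.6 to 28.7 FPKM in wildtype, 27.0 to 27.7 in heterozygous and 46.1 to 50.4 in knockout libraries. No marker was listed at 0. All 7 tested markers were higher in every knockout library than in every control, as were 6.75% of all tested genes. Exons of Hmgxb3 overlap Csf1r by 15.12%. Among controls, whose microglial sums lay close together, Apoe ran from 222 to 305 FPKM. The part of microglia in the Apoe level was not tested.

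**Figure D3:**
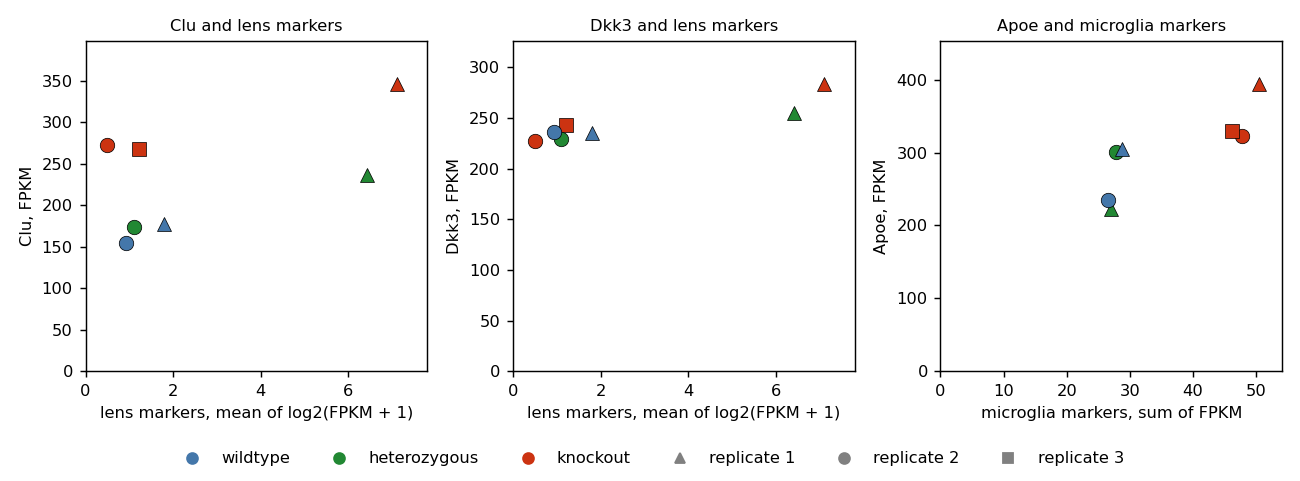
Levels of Clu, Dkk3 and Apoe in FPKM (vertical axes) against markers of other cells in the same library, for wildtype (blue), heterozygous (green) and knockout (red). The horizontal axis is the mean log2(FPKM + 1) of 8 lens genes for Clu and Dkk3 and the summed FPKM of 9 microglial genes for Apoe. The lens-poor knockout libraries hold Clu at 272 and 268 FPKM, above the lens-rich heterozygous 1 at 236 FPKM.

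Groups that did not overlap were also counted. Crym, Clu and Apoe, 3 of 10, were higher in all knockout than in all control libraries, as were 6.75% of tested genes, and 0 of 10 were lower in all of them, as were 6.26%. Against wildtype alone 3 of 10 were higher, where 13.5% of tested genes were, and 1 of 10, Glul, was lower, where 14.7% were. The median log2 change of the 10 was 0.02 against all controls and 0.00 against wildtype, beside 0.003 and -0.003 for all tested genes. On the TPM scale the medians against wildtype were -0.16 for the 10 and -0.16 for all genes. The summed level of the 10 genes was 1473 to 1598 FPKM in wildtype, 1492 to 1513 in heterozygous and 1606 to 1796 in knockout libraries, a sum to which Glul, Apoe, Clu and Dkk3 contribute most. Rods, the most numerous cells of the mouse retina, were also followed: 8 rod genes summed to 8629 to 8759 FPKM in wildtype, 8641 to 9787 in heterozygous and 7886 to 8014 in knockout libraries. Of these, 6 were lower in every knockout library than in every control, as were 6.26% of all tested genes. Against all controls limma called 0 of the 8, with 3 at an unadjusted p under 0.05, where 12.2% of all tested genes were. Nr2e3 overlapped, and Sag, for rod arrestin, was higher in every knockout library, at 467 to 486 FPKM beside 322 to 380 in controls (0.42 ± 0.07, limma, adjusted p = 0.0591), with a larger change than any other gene of that list. What part a different mix of cells has in the levels of the 10 genes was not tested.

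Other genes of Mueller cells and of the pathways around the 10 were taken from 9 lists with 100 genes, of which 87 were tested. Limma called 0 of the 87 against all controls, with 18 at an unadjusted p under 0.05, and 0 against wildtype, with 11. Of all 15472 tested genes, 12.2% and 7.5% had such a p in these comparisons, and the counts for the single lists below are to be read beside the 12.2%. Voom called 2 against all controls, among them Notch1 (0.46, adjusted p = 0.0178), and 0 against wildtype. Of 13 transcription and signalling factor genes of Mueller cells all were tested, with a median log2 change of 0.08 against all controls. Sox9, which specifies glial fate, had a mean of 3.66 FPKM in knockout and 3.54 in controls, Lhx2 7.89 and 7.66 and Sox2 9.28 and 9.11. Notch1, for a receptor that maintains retinal progenitors, had 3.40 to 3.73 FPKM in knockout and 2.37 to 2.85 in controls (0.35 ± 0.08, limma, adjusted p = 0.145), and exons of unnamed transcripts overlap 7.5% and 2.91% of its model. Hes5, a Notch target whose model overlaps another by 31.77%, had 1.18 to 1.87 and 1.56 to 2.65 FPKM (-0.36 ± 0.17, adjusted p = 0.446).

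Of 12 further Mueller genes 11 were tested, with a median of 0.15 and 4 at an unadjusted p under 0.05. Pdpn, for the membrane glycoprotein podoplanin, had 22.1 to 26.1 FPKM in knockout and 13.3 to 19.99 in controls (0.56 ± 0.13, limma, adjusted p = 0.161). Mlc1, for a membrane protein of glial endfeet, had 31.7 to 32.3 and 24.1 to 29.6 FPKM (0.23 ± 0.07, adjusted p = 0.292). For both genes knockout and controls did not overlap, and neither passed.

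Around the glutamate genes, all 11 listed genes were tested with 0 at an unadjusted p under 0.05 against all controls and a median of 0.08. Slc1a2, for the transporter GLT-1, had a mean of 25.4 FPKM in knockout and 27.0 in controls, and Slc38a3, for a glutamine transporter, 171 and 159. Got1, for aspartate aminotransferase, had 118 and 107 FPKM (0.15 ± 0.08, limma, adjusted p = 0.498), and Gad1, the GABA synthesis gene of amacrine cells, 33.6 and 37.5 (-0.15 ± 0.08, adjusted p = 0.489).

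For potassium and water, 10 of 13 genes were tested with a median of 0.07 and 1 at an unadjusted p under 0.05. That was Dmd, whose short product Dp71 anchors Kir4.1 and aquaporin 4 in Mueller endfeet. Dmd had 9.86 to 11.8 FPKM in knockout and 12.3 to 13.2 in controls, with no overlap (-0.27 ± 0.07, limma, adjusted p = 0.216). These values are for the whole gene model, and Dp71 was not measured apart.

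The retinoid list had the highest median of the 9, 0.49 over 10 tested genes against all controls, with 5 at an unadjusted p under 0.05 and none passing with limma. Rpe65, the pigment epithelial isomerase, had 7.88 to 12.9 FPKM in knockout and 3.75 to 8.20 in controls (0.76 ± 0.25, limma, adjusted p = 0.299). Of the 10 pigment epithelium and melanocyte genes 9 were tested, and none was called. Against all controls their members went opposite ways, so their median of -0.05 describes neither kind. Rpe65, Rgr, Lrat and Ttr, genes of pigment epithelium, had changes of 0.76, 0.65, 0.56 and 1.03 with an unadjusted p under 0.05 (limma). The pigment genes Tyr, Tyrp1, Pmel, Dct and Mlana had changes from -0.65 to -0.05. Against wildtype all 9 tested genes had changes above 0, with a median of 0.58. Against heterozygous libraries 5 of the 9 were below 0, with a median of -0.355. Rpe65, Lrat and Rgr are 3 genes that the retinoid list shares with it. All 10 pigment epithelium and melanocyte genes together summed to 45.9 and 157 FPKM in wildtype, 239 and 128 in heterozygous and 273, 82.8 and 161 in knockout libraries. No marker of that list was at 0, and its part in the retinoid values was not tested. Rlbp1, also a gene of this pathway, was at -0.03 ± 0.06.

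The remaining lists had medians near 0. Lipoprotein genes had a median of 0.03 over 12 tested genes with 2 at an unadjusted p under 0.05, namely Nr1h2, a liver X receptor gene (0.20 ± 0.06, limma, adjusted p = 0.282), and Lrp1, a receptor for apolipoprotein E (0.23 ± 0.07, adjusted p = 0.288). Acid, bicarbonate and lactate genes had a median of 0.10 over 7 of 10. Slc16a1, for the lactate carrier MCT1, had 43.2 to 44.5 FPKM in knockout and 48.7 to 55.5 in controls (-0.22 ± 0.05, adjusted p = 0.193). Dickkopf and Wnt genes had a median of 0.06 over 7 of 12, with Kremen1, a Dickkopf receptor, with means of 6.09 and 4.87 FPKM (0.28 ± 0.10, adjusted p = 0.338) and Axin2, a Wnt target, 6.26 and 5.52 (0.16 ± 0.08, adjusted p = 0.462).

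On the TPM scale, where all tested genes had a median of -0.12 against all controls, the medians of 7 of the 9 lists were below 0, and those of the further Mueller genes (0.04) and the retinoid genes (0.45) did not.

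Genes listed under reactive glia were followed in the same libraries, which are of whole tissue and do not show which cells held these transcripts. Of 14 listed genes 13 were tested, and limma called 8 higher against all controls, where 0.465% of all tested genes were. These were Edn2, Fgf2, Stat3, C4b, Serpina3n, A2m, Cebpd and Gfap, and the list median was 1.49. That list was drawn up with earlier results of these libraries known, so its direction is not independent evidence. Gfap, the glial intermediate filament, measured 4.96 and 6.74 FPKM in wildtype 1 and 2, 9.62 and 4.94 in heterozygous 1 and 2 and 20.07, 23.2 and 16.3 in knockout 1, 2 and 3 (1.49 ± 0.22, limma, adjusted p = 0.0324). Its call was lost in 10 of 19 settings, among them without either wildtype library, heterozygous 2 or any knockout library, with adjusted p up to 0.16. Serpina3n, A2m and Cebpd each lost the call without knockout 1 (adjusted p = 0.107, 0.0744 and 0.0744) and without knockout 2 (adjusted p = 0.0982, 0.058 and 0.075). Serpina3n and Cebpd also lost it when the pair of lens-rich libraries was left out (adjusted p = 0.0879 and 0.121). Serpina3n lost it without wildtype 2 (adjusted p = 0.071) and with no filter on low values (0.0508), and A2m and Serpina3n without knockout 3 (adjusted p = 0.0628 and 0.0701). Osmr, a cytokine receptor gene, missed the threshold (0.68 ± 0.11, adjusted p = 0.0504), and Cd44, an adhesion receptor gene, did not pass (0.48 ± 0.24, adjusted p = 0.471). Of 5 astrocyte markers 3 were tested and Gfap alone was called, with Aldh1l1 at 2.34 to 4.12 FPKM in controls and 3.95 to 5.36 in knockout (0.50 ± 0.16, adjusted p = 0.308) and S100b at 4.79 to 7.28 and 4.48 to 5.96 (-0.23 ± 0.14, adjusted p = 0.548). Their summed level was 14.1 to 19.2 FPKM in controls and 25.05 to 33.75 in knockout, and without Gfap, which is also in the reactive list, 9.13 to 10.9 in controls and 8.72 to 11.6 in knockout. Gjb6 was listed at 0 in knockout 2, and the part of astrocytes was not tested. Exons of Spidr overlap 15% of Cebpd and exons of Nudt6 9.44% of Fgf2. Edn2, for an endothelin, went from 1.47 to 3.10 FPKM in controls to 50.9 to 60.1 in knockout libraries, and the cells that held it were not identified.

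**Figure D4:**
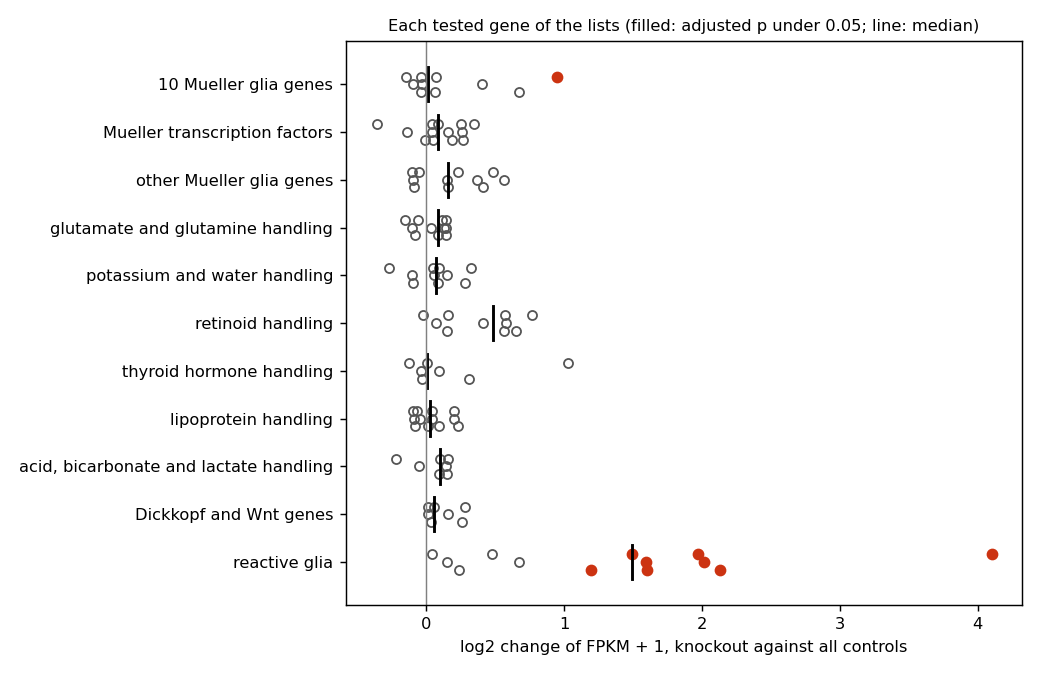
Log2 change of FPKM + 1 in knockout against all controls (horizontal axis) for every tested gene of the 10 Mueller glia genes and the 10 other lists. Filled points passed at an adjusted p under 0.05, open points did not, and the line is the median of the list. The medians are 0.02 for the Mueller glia genes, 0.49 for retinoid handling and 1.49 for reactive glia, and Crym is the only filled point outside the reactive list.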

How the data were processed

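Polyadenylated RNA of 7 libraries was sequenced, and the authors deposited FPKM per gene, 1 column per library. Per the submitters' processing notes TopHat2 2.0.9, Bowtie2 2.0.6, HTSeq and DESeq were used with mm10 and GRCm38. Their settings are not given in the sources used here. Gene models came from GENCODE M21 (GRCm38), found for 54409 genes. With their lengths 96.8% of values above 0 were whole reads within a tolerance of 0.01. A single read on 1 kilobase stood for 0.0663 to 0.0766 FPKM. FPKM were analysed as log2(FPKM + 1), which understates changes of low genes, for genes whose mean over the libraries reached 1 FPKM. Tests used limma 3.58.1 in R 4.3.3 with a mean-variance trend, in a fit of 3 genotypes (4 residual degrees of freedom) and a fit of knockout against all controls (5). The test was tried on simulated data. Alternatives were other pseudocounts, filters and scalings, voom on recovered reads, no trend, a replicate block, lens or Xist terms and libraries left out.

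The 10 genes, the lists and the alternatives were chosen with earlier results of these data known. Lists covered Mueller factors, other Mueller genes, the pathways around the 10, reactive glia and markers of other cells. The rule named, of each list, all genes called against wildtype or all controls and 2 more by smallest p against all controls. Some genes that this rule selects are not reported here. Other genes named were chosen after their values were seen. Profiles were compared for members that spanned at least 1 on the log2 scale.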

Additional observations from a re-analysis of the deposited data

Results flagged for a closer look

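Car14 in the controls had 1 library away from the rest. Wildtype 2 stood at 26.2 FPKM while the other 3 controls lay between 29.6 and 29.95 FPKM, a gap of 0.899 of the range of the 4 libraries, above the limit of Dixon's test at 95%. The controls of 10 genes were examined in this way, and chance alone singles out about 1 in 20 groups.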

How the results depend on the processing

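The 40 changes of the 10 genes (4 comparisons each) were recomputed under up to 19 other settings, 756 values in all. Of these, 722 kept their direction and side of the threshold, 27 lost a call, 5 gained one and 2 changed sign: Car14 against wildtype on the TPM scale (-0.16) and Aqp4 against all controls without both lens-rich libraries (0.001). A sign change below 1 SE in both fits, found 57 times, was not counted as a change of direction. Against wildtype the number of genes called went from 1 to 0 with no filter, on the TPM scale, without the trend, with the lens covariate, with the replicate number as a replicate block, without both lens-rich libraries and without any 1 library (0 to 0), and to 2 with voom (Crym and Clu). Against heterozygous libraries it went from 1 to 0 in those settings other than voom (0 to 0 with 1 library left out). Against all controls it was 1 to 2 with 1 library left out, and 2 with voom and with the lens covariate. It stayed at 1 without both lens-rich libraries, where the gene was Clu and not Crym. The labels name no animals and do not say whether same-numbered libraries belong together. The deviations of same-numbered libraries had correlations of -0.0176 between wildtype and heterozygous and -0.0233 and 0.0919 between wildtype and knockout. Between heterozygous and knockout they were 0.2714 and 0.4305. Heterozygous 2 and knockout 3, of unlike number, had 0.2528. In a group of 2 libraries the deviations mirror each other, so these correlations cannot decide on pairing. The numbers were not treated as pairing because the labels give none. With the replicate block Crym stood at 0.994 against wildtype (limma, adjusted p = 0.196), 1.02 against all controls (0.0349) and 1.045 against heterozygous libraries (0.182). Over all genes the calls ranged from 2 to 77 against wildtype (50 as reported), from 0 to 76 against heterozygous libraries (49), from 38 to 147 against all controls (95) and from 0 to 19 between heterozygous and wildtype (0). With 2 or 3 libraries a group, the intervals printed beside the flat genes limit what could be seen.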

Other observations

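The knockout libraries were almost identical in Glul. Their SD was 0.507% of the mean, below the 0.628% that counting 25386 reads on average would give on its own. The heterozygous and wildtype libraries together spread by 7.79%. Of the 9 genes with recovered reads, 1 had a knockout spread below its counting error and 8 had one above it, for instance 12.1% beside 2.96% for Crym and 14.7% beside 0.850% for Clu. In wildtype Dkk3 was the closest pair, at 0.486% beside a counting error of 0.922%. With 2 or 3 libraries such small spreads can arise by chance, and this was not tested.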
